A study of Homo sapiens with 6 samples.

Results

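The genes described here are 10 human imprinted genes other than IGF2 and H19, namely DLK1, MEG3, NDN, MAGEL2, SNRPN, CDKN1C, PEG3, PEG10, MEST and PLAGL1. They were taken by gene symbol from the 32575 genes listed in the deposited tables; all 10 had an entry, and 8 had enough reads to be tested. The tables hold the RNA of SH-SY5Y, a neuroblastoma line of human origin, sequenced in 3 groups of 2 libraries. Cells of the first group carried a lentiviral short hairpin RNA against CSA (gene ERCC8), those of the second a hairpin against CSB (gene ERCC6), and those of the third a control hairpin. All 3 groups were selected with puromycin and kept in culture for 2 to 3 weeks. The genotype labels read CSAmut, CSBmut and WT, but the growth protocol describes hairpins, so the groups are called CSA knockdown, CSB knockdown and control here. All groups come from 1 tumour-derived line, and the sources used here state neither the number of hairpins per target nor how many cultures gave the libraries of each group. The p-values below therefore rest on the spread between these libraries, which may be technical. The limma fit used below also draws the spread of each gene toward that of genes of similar level.

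An imprinted gene is expressed mainly from the chromosome inherited from one parent. The choice is kept by DNA methylation at imprinting control regions, short CpG-rich stretches methylated on one parental chromosome. Imprinted genes lie in clusters that hold protein-coding genes and long non-coding RNAs, and many act in growth, placental function and the developing nervous system. DLK1, NDN, MAGEL2, SNRPN, PEG3, PEG10, MEST and PLAGL1 are known as paternally expressed, and MEG3 and CDKN1C as maternally expressed. Total RNA levels, as measured here, do not tell the parental copies apart.

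Promoter windows from RefSeq (GRCh38.p14, 250 bases before to 50 after a transcript start, 300 bases in all) were found for 6 of the 10 genes, MEG3, NDN, MAGEL2, SNRPN, MEST and PLAGL1. The table holds 1 window for NDN and for MAGEL2, 3 for MEG3, 4 for SNRPN and 5 each for MEST and PLAGL1. Chosen windows of 5 of these genes are printed 5′ to 3′ on the gene's own strand. Capitals mark the hexamer TGCCGC on either strand (GCGGCA on the printed one), the core motif that the imprint-keeping zinc finger protein ZFP57 binds when it is methylated. The first pair shows NDN, which was measured in every library, beside MAGEL2, its neighbour at no more than 1 read in a library.
NDN, chr15:23687256-23687555, minus strand: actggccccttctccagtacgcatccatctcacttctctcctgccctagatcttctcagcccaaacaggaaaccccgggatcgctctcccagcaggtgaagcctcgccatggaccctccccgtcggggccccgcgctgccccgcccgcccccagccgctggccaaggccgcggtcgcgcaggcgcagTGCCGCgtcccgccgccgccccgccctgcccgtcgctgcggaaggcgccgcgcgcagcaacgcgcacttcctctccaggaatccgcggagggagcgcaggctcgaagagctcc
MAGEL2, chr15:23647818-23648117, minus strand: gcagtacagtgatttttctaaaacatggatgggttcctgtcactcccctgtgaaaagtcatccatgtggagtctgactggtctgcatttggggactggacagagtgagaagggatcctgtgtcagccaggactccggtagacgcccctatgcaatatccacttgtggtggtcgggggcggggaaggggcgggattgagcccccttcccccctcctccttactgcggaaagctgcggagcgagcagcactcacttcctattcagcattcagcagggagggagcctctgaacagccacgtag

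The NDN window held 35 CG pairs and 1 hexamer, and the MAGEL2 window 9 CG pairs and 0 hexamers. Over all 35116 windows of the RefSeq table the median was 14 CG pairs, and 16.7% held the hexamer on either strand. The next sequences are a MEG3 window, for the partner of DLK1 that was not detectable, and windows of PLAGL1 and MEST, for members that differed between the knockdowns. The PLAGL1 window is the one that also covers the start of HYMAI, a non-coding RNA inside PLAGL1. The MEG3, PLAGL1 and MEST windows lie inside the deposited spans of these genes, past the start of each span.
MEG3, chr14:100825858-100826157, plus strand: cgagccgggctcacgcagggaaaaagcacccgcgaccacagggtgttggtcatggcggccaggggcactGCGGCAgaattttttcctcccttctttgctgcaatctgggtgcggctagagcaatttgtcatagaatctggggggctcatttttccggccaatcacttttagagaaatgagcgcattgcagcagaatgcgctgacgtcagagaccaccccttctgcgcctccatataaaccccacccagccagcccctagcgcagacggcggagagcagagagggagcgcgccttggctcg
PLAGL1, chr6:144008210-144008509, minus strand: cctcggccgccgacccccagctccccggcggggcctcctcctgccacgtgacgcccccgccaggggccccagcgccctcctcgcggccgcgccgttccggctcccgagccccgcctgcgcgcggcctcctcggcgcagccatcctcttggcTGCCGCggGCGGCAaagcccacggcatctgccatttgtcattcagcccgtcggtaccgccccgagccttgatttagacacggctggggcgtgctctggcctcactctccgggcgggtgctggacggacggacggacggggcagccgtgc
MEST, chr7:130491835-130492134, plus strand: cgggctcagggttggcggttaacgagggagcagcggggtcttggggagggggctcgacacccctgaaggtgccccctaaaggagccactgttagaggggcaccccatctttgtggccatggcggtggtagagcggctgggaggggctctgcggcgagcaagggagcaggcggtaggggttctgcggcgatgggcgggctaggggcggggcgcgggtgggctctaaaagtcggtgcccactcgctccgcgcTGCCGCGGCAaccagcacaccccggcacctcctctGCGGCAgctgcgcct

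These windows held 19 CG pairs and 1 hexamer for MEG3, 39 and 2 for PLAGL1, and 25 and 3 for MEST, where a pair of the hexamers overlap. They hold the most CG pairs among the windows of their genes: over all windows the CG pairs ranged from 17 to 19 for MEG3, from 2 to 39 for PLAGL1, from 13 to 25 for MEST and from 2 to 18 for SNRPN. The hexamer was in 3 of 3 windows of MEG3, 1 of 5 of PLAGL1, 4 of 5 of MEST and 2 of 4 of SNRPN. A match describes the letters only; methylation and protein binding were not measured.

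The libraries held 19368272 to 26758162 gene-assigned reads. Values are scaled counts, the reads of a gene divided by 1 size factor per library, and changes are log2 fold changes of (scaled count + 1) with their standard error (SE) from 1 limma fit of all 6 libraries. A gene was called as risen or fallen at an adjusted p (Benjamini-Hochberg, over 28388 tested genes) below 0.05. The targeted genes followed their labels: ERCC8 had 61.8 and 57.2 scaled counts in CSA knockdown, against 219 and 217 in control, and ERCC6 had 258 and 302 in CSB knockdown, against 615 and 593 in control. Of 10 noradrenergic neuroblastoma markers all had an entry, with sums of 106900 to 112300 in CSA knockdown, 121200 to 122000 in CSB knockdown and 105700 to 109000 in control. Within that list 2 rose and 5 fell in CSA knockdown, and 5 rose and 1 fell in CSB knockdown. The sum of 12 mesenchymal and fibroblast markers was 14610 to 15300 in CSA knockdown, 40250 to 42100 in CSB knockdown and 29570 to 29870 in control. Of those 12 markers, 8 fell in CSA knockdown and 4 did not pass the test, 7 rose and 2 fell in CSB knockdown, and all had reads in every library. Of all tested genes 18.8% were called in CSA knockdown and 23.6% in CSB knockdown. In bulk RNA, fewer cells of a type and less RNA per cell cannot be told apart.

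Against control, 4 of the 8 tested members passed the test in CSA knockdown (1 higher, 3 lower), where 18.8% of all tested genes did (8.37% higher, 10.4% lower). In CSB knockdown 7 of 8 passed (3 higher, 4 lower), where 23.6% of all tested genes did (14.8% higher, 8.86% lower). Between CSB knockdown and CSA knockdown 6 of 8 passed (3 higher and 3 lower in CSB knockdown), where 29.4% of all tested genes did (18.1% higher, 11.3% lower). The tested members all had a mean over the 6 libraries of at least 20 scaled counts, and among the 15483 genes of that kind the shares called were 32.5%, 40.7% and 48.7% in the same order of comparisons. With 1 library left out in turn, the members called numbered 2 to 3 for CSA knockdown, 3 to 5 for CSB knockdown and 3 to 6 between the knockdowns. Leaving out a library also takes the residual degrees of freedom of the fit to 2, against 3 with all libraries. The spread that limma shares over genes is estimated anew in each such fit. A lost call can therefore reflect the changed fit as well as the omitted library. Where the library lies outside the comparison, the fold change stays as it is, so a call lost that way is lost at the same fold change. With other scalings the balance of all calls changed: in CSB knockdown against control 4191 genes were higher and 2515 lower as deposited, and 2766 and 3082 with TMM (trimmed mean of M-values) scaling. Between CSB and CSA knockdown those numbers were 5128 and 3212 as deposited, and 3963 and 3859 with TMM scaling.

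**Figure D1:**
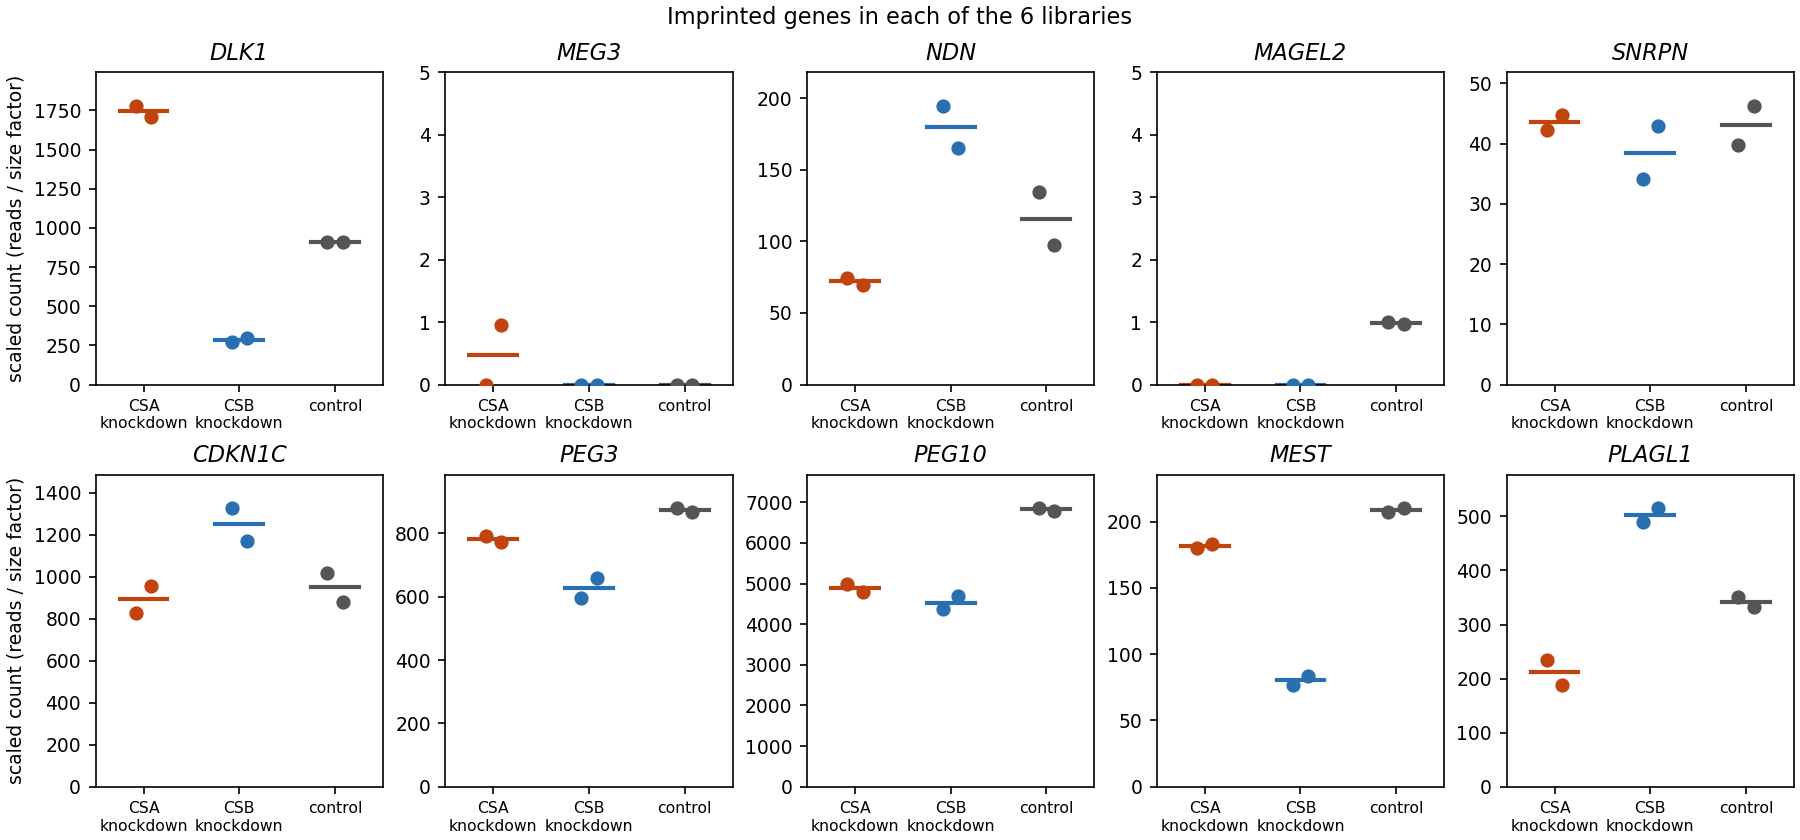
Scaled counts (reads divided by the library's size factor, linear axis from 0) of the 10 genes in each of the 6 libraries; points are libraries and bars are group means. DLK1 was highest in CSA knockdown and lowest in CSB knockdown, NDN and PLAGL1 had the opposite order, and MEG3 and MAGEL2 had at most 1 read in a library.

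**Figure D2:**
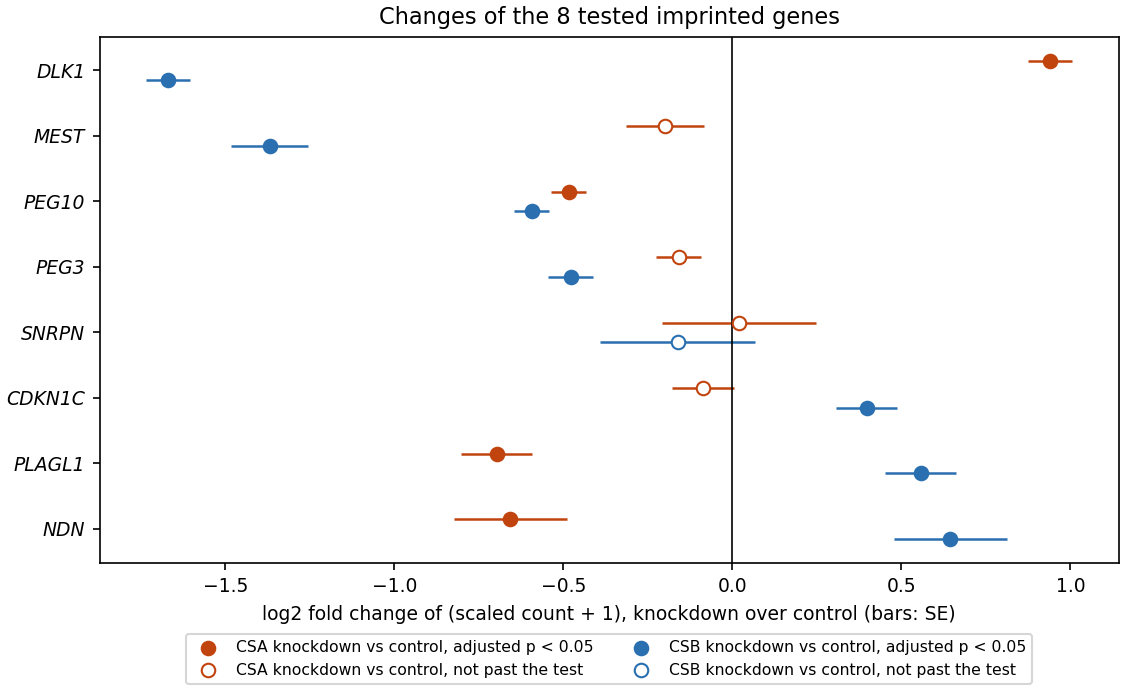
Log2 fold changes of (scaled count + 1) of the 8 tested genes, each knockdown over control, with SE bars from the limma fit; filled points passed an adjusted p of 0.05. DLK1 lay at 0.94 in CSA knockdown and -1.67 in CSB knockdown, whereas both changes of PEG10 were negative.

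DLK1 and MEG3 lie next to each other on chromosome 14 and are expressed from opposite parental copies. DLK1 encodes a transmembrane protein of the Notch ligand family with roles in progenitor and neuroendocrine cells, and MEG3 is a long non-coding RNA. DLK1 (ENSG00000185559, hg38 chr14:100725705-100738224, plus strand) had 1780 and 1711 scaled counts in CSA knockdown, 273 and 298 in CSB knockdown, and 908 and 910 in control. The 3 groups did not overlap, and the pairs of libraries lay close together. The group means were 1745 ± 48.7, 285 ± 17.5 and 909 ± 1.06 (SD, n = 2 each).

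DLK1 was 1.92-fold of control in CSA knockdown (log2 fold change 0.94, SE 0.07, limma adjusted p = 1.12e-06). In CSB knockdown it was 0.314-fold of control (log2 fold change -1.67, SE 0.07, limma adjusted p = 1.78e-08). The level in CSB knockdown was 0.164-fold of that in CSA knockdown (log2 fold change -2.61, SE 0.07, limma adjusted p = 9.68e-11). All 3 calls were kept under each of the 18 alternatives run.

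MEG3 (ENSG00000214548, hg38 chr14:100779410-100861031, plus strand), which starts 41.2 kb past the end of DLK1, had 0 and 1 reads in CSA knockdown, 0 and 0 in CSB knockdown, and 0 and 0 in control. A count of 0 allows up to 3 reads per library, or 2.48 to 3.30 scaled counts, an allowance for counting error only. MEG3 was therefore not detectable at this depth in any group, and no fold is given. The genes with the smallest distance to its pattern reflect a single read and are not described.

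Of the neighbours of DLK1, RTL1 and BEGAIN changed in the same directions as DLK1 in both knockdowns. RTL1, a retrotransposon-derived gene known as paternally expressed, lies 142 kb beyond DLK1 on the opposite strand (hg38 chr14:100880655-100884847). RTL1 had 3721 and 3541 scaled counts in CSA knockdown, 146 and 187 in CSB knockdown, and 966 and 1028 in control. It thus had the same order of groups as DLK1 with wider gaps.

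RTL1 rose in CSA knockdown (log2 fold change 1.86, SE 0.10, limma adjusted p = 1.2e-07) and fell in CSB knockdown (log2 fold change -2.58, SE 0.10, limma adjusted p = 1.29e-08), calls kept under every alternative run. The ratio of RTL1 to DLK1 reads was 2.09 and 2.07 in CSA knockdown, 0.536 and 0.629 in CSB knockdown, and 1.06 and 1.13 in control. The ratios are given as a description, with no test; an exact permutation test of 2 against 2 libraries could not give a two-sided p below 0.333. Strand use in the counting is not given, so RTL1 reads and reads of any transcript antisense to it cannot be told apart.

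BEGAIN, a brain-enriched gene upstream of DLK1, had 6106 and 6673 scaled counts in CSA knockdown, 2007 and 2034 in CSB knockdown, and 2653 and 2480 in control. It rose in CSA knockdown (log2 fold change 1.31, SE 0.06, limma adjusted p = 3.4e-08). The fall of BEGAIN in CSB knockdown (log2 fold change -0.34, SE 0.06, limma adjusted p = 8.45e-04) was lost when either CSB knockdown or either control library was left out (adjusted p 0.0546 to 0.115). DLK1 and RTL1 kept both of their calls in the same tests.

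The non-coding RNAs of the region were low. MEG8 had 5 and 6 reads in CSA knockdown, 0 and 0 in CSB knockdown, and 0 and 2 in control. Its difference between the knockdowns passed the test (log2 fold change -2.72 for CSB over CSA knockdown, SE 0.66, limma adjusted p = 0.00739) but not when any of the 4 knockdown libraries was left out (adjusted p 0.0803 to 0.128). MEG9 had 17 and 20 reads in CSA knockdown, 7 and 8 in CSB knockdown, and 16 and 5 in control, and did not pass the test in a comparison. DIO3, the thyroid hormone deiodinase gene at the far end of the domain, had 60.7 and 71.5 scaled counts in CSA knockdown, 46.2 and 47.0 in CSB knockdown, and 42.8 and 49.2 in control, and did not pass either. DIO3OS lies beside DIO3 on the opposite strand, and the deposited spans of these genes do not overlap. It was higher in CSA knockdown (log2 fold change 0.95, SE 0.25, limma adjusted p = 0.0176). In CSB knockdown it was higher too (log2 fold change 0.88, SE 0.25, limma adjusted p = 0.0216). The DIO3OS call in CSA knockdown was lost when any 1 of the 6 libraries was left out (adjusted p 0.0567 to 0.115) and with DESeq2 (adjusted p = 0.0977). Its call in CSB knockdown was lost without either CSB knockdown or either control library (adjusted p 0.0991 to 0.122) and with DESeq2 (adjusted p = 0.158).

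Of the 6 neighbours of DLK1 and MEG3 with enough reads, 3 rose in CSA knockdown and the other 3 did not pass the test, with a median log2 fold change of 1.15, beside 0.00482 over all tested genes. In CSB knockdown 1 rose and 2 fell, with a median of -0.32, beside 0.0967 over all tested genes. The shares called of all tested genes were 18.8% in CSA and 23.6% in CSB knockdown. MIR381HG had no entry in any library, by symbol or by Ensembl identifier, and was not tested.

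**Figure D3:**
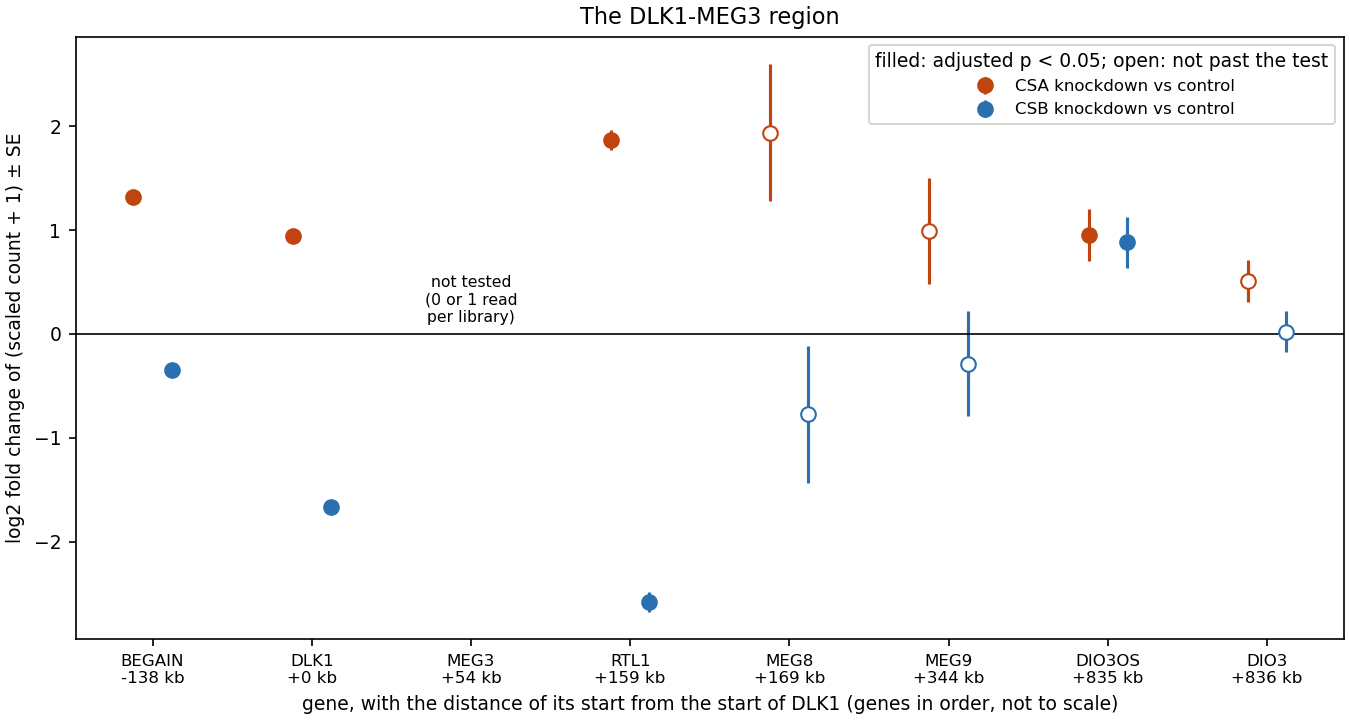
Log2 fold changes of (scaled count + 1), each knockdown over control, with SE bars, for the genes of the DLK1-MEG3 region in genomic order (spacing not to scale; the axis gives the distance of each start from that of DLK1 in kb). BEGAIN, DLK1 and RTL1 were above 0 in CSA knockdown and below 0 in CSB knockdown; filled points passed an adjusted p of 0.05.

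Among 13396 genes averaging 50 or more scaled counts, the 3 whose pattern over the 6 libraries was closest to that of DLK1 were GAP43, SMKR1 and CHGA, with root mean square differences of the centred log2 values of 0.098, 0.125 and 0.17. GAP43, which encodes a growth cone protein of neurons, had 2859 and 3037 scaled counts in CSA knockdown, 462 and 428 in CSB knockdown, and 1388 and 1449 in control. CHGA, which encodes the secretory granule protein chromogranin A, had 22906 and 25867 in CSA knockdown, 3566 and 3681 in CSB knockdown, and 15330 and 14469 in control. MEST ranked 172, RTL1 ranked 415 and IGF2 ranked 12617 by this distance, which counts the size of changes and not only their direction. RTL1 and IGF2 had the order of groups of DLK1 with wider gaps, whereas MEST was highest in control. The points share the 6 libraries, and the ranking is a description of these libraries only. The IGF2 and H19 genes of chromosome 11 had the same order of groups as DLK1, with IGF2 at 3586 and 3770 scaled counts in CSA knockdown, 50.6 and 47.9 in CSB knockdown, and 718 and 613 in control.

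NDN, MAGEL2 and SNRPN belong to the cluster on chromosome 15 whose paternal loss causes Prader-Willi syndrome. NDN encodes necdin, a protein of the MAGE family that restrains proliferation in postmitotic neurons, and SNRPN encodes a small nuclear ribonucleoprotein with a part in splicing. NDN (ENSG00000182636, hg38 chr15:23685400-23687330, minus strand) had 74.8 and 69.6 scaled counts in CSA knockdown, 195 and 165 in CSB knockdown, and 134 and 97.4 in control. The groups did not overlap, but the control libraries lay far apart (115.9 ± 26.1, SD, n = 2).

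NDN was 0.623-fold of control in CSA knockdown (log2 fold change -0.66, SE 0.17, limma adjusted p = 0.0155) and 1.55-fold of control in CSB knockdown (log2 fold change 0.64, SE 0.17, limma adjusted p = 0.0141). Both calls against control were lost when any 1 of the 6 libraries was left out, with adjusted p of 0.0611 to 0.251 in CSA knockdown and 0.0571 to 0.272 in CSB knockdown. The call of NDN in CSA knockdown was also lost in a fit of the 2 groups alone (adjusted p = 0.0508), and that in CSB knockdown with DESeq2 (adjusted p = 0.0703). Between the knockdowns NDN was 2.49-fold higher in CSB knockdown (log2 fold change 1.30, SE 0.17, limma adjusted p = 7.01e-05). That call was lost without CSA knockdown replicate 2 (adjusted p = 0.0539), CSB knockdown replicate 1 (adjusted p = 0.0599) or CSB knockdown replicate 2 (adjusted p = 0.0514). The summed mesenchymal and fibroblast markers had the same order of groups as NDN, and their part in the result was not tested.

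MAGEL2 (ENSG00000254585, hg38 chr15:23643544-23647841, minus strand), another MAGE gene, which regulates a ubiquitin ligase on endosomes, lies 37.6 kb from NDN. It had 0 and 0 reads in CSA knockdown, 0 and 0 in CSB knockdown, and 1 and 1 in control. All of these lie under the 3 reads that a count of 0 allows, so MAGEL2 was not detectable in any group and no fold is given.

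SNRPN (ENSG00000128739, hg38 chr15:24823637-24978723, plus strand) lies 1140 kb from NDN. It had 42.3 and 44.8 scaled counts in CSA knockdown, 34.1 and 42.9 in CSB knockdown, and 39.8 and 46.3 in control, and the groups overlapped. Its log2 fold changes were 0.02 in CSA knockdown and -0.16 in CSB knockdown (SE 0.23 each, limma adjusted p = 0.99 and 0.68), so a difference was not detectable at the spread of these libraries. SNURF, which shares 22865 bases with SNRPN on the same strand, had 9 to 18 reads in a library, and reads of the overlap may be assigned to either gene. The fold change of SNRPN in CSA knockdown changed sign when SNURF was added to it (-0.07).

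The ratio of NDN to SNRPN reads was 1.77 and 1.55 in CSA knockdown, 5.71 and 3.85 in CSB knockdown, and 3.38 and 2.10 in control. The ratio was lowest in both CSA knockdown libraries and highest in both CSB knockdown libraries. The mean log2 ratio differed from control by -0.69 in CSA knockdown and by 0.81 in CSB knockdown, given as a description with no test.

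SNHG14, the long host transcript of the region's small nucleolar RNAs and of the RNA antisense to UBE3A, had 1149 and 1172 scaled counts in CSA knockdown, 1100 and 1083 in CSB knockdown, and 1336 and 1425 in control. It fell in CSA knockdown (log2 fold change -0.25, SE 0.06, limma adjusted p = 0.00864), a call lost when any 1 of the 6 libraries was left out (adjusted p 0.066 to 0.127). SNHG14 also fell in CSB knockdown (log2 fold change -0.34, SE 0.06, limma adjusted p = 9.42e-04), a call lost without either CSB knockdown library or control replicate 2 (adjusted p 0.0553 to 0.069). PWAR5, a non-coding RNA of the same region, fell in CSA knockdown (log2 fold change -0.57, SE 0.12, limma adjusted p = 0.00551). Its values were 152 and 122 scaled counts in CSA knockdown, 207 and 214 in CSB knockdown, and 197 and 208 in control. That call of PWAR5 was lost without CSA knockdown replicate 2, either CSB knockdown library or either control library (adjusted p 0.064 to 0.156). MKRN3, an imprinted zinc finger gene at the far side of NDN, had 144 and 152 in CSA knockdown, 161 and 136 in CSB knockdown, and 139 and 132 in control, and did not pass the test.

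Of 8 tested neighbours of NDN, MAGEL2 and SNRPN, 2 fell in CSA knockdown and 6 did not pass the test, with a median log2 fold change of -0.30; in CSB knockdown 1 fell and 7 did not pass, with a median of 0.06. Beside these counts, 18.8% of all tested genes were called in CSA and 23.6% in CSB knockdown. The remaining 5 genes of the neighbour list had no entry in any library, by symbol or by Ensembl identifier, and were not tested. Between the knockdowns PWAR5 and UBE3A were higher in CSB than in CSA knockdown. For PWAR5 that difference (log2 fold change 0.62, limma adjusted p = 0.00175) was lost without CSB knockdown replicate 1 (adjusted p = 0.0915) or replicate 2 (adjusted p = 0.121). For UBE3A that difference (log2 fold change 0.18, limma adjusted p = 0.0291) was lost under 12 of 18 alternatives, among them TMM scaling (adjusted p = 0.241). It was lost without CSA knockdown replicate 2, either CSB knockdown library or either control library (adjusted p 0.0894 to 0.182).

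Genes whose proteins are known to bind or act with necdin or MAGEL2, WASH complex subunits among them, were compared as well, 11 in all. NGFR, which encodes the p75 neurotrophin receptor that necdin binds, had 47.7 and 62.0 scaled counts in CSA knockdown, 1358 and 1515 in CSB knockdown, and 116 and 102 in control. It rose in CSB knockdown (log2 fold change 3.70, SE 0.13, limma adjusted p = 1.13e-08) under every alternative run. NGFR fell in CSA knockdown (log2 fold change -0.99, SE 0.13, limma adjusted p = 2.01e-04), a call lost without either CSB knockdown or either control library (adjusted p 0.058 to 0.0928). The order of groups for NGFR was that of NDN, with much wider gaps.

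USP7, a deubiquitinase that acts with MAGEL2, had 2936 and 2860 scaled counts in CSA knockdown, 2421 and 2469 in CSB knockdown, and 3064 and 3020 in control. It fell in CSB knockdown (log2 fold change -0.32, SE 0.05, limma adjusted p = 4.62e-04). CCDC53 (current symbol WASHC3), a subunit of the endosomal WASH complex that MAGEL2 acts on, rose in CSA knockdown (log2 fold change 0.63, SE 0.08, limma adjusted p = 1.84e-04). KIAA0196 (current symbol WASHC5), another subunit of that complex, had 775 and 628 scaled counts in CSA knockdown, 386 and 339 in CSB knockdown, and 747 and 749 in control. It fell in CSB knockdown (log2 fold change -1.05, SE 0.10, limma adjusted p = 1.05e-05), a call lost without CSB knockdown replicate 2 (adjusted p = 0.063). FAM21C (current symbol WASHC2C), a further subunit, rose in CSB knockdown (log2 fold change 0.27, SE 0.05, limma adjusted p = 0.00261), a call lost without either control library (adjusted p 0.0552 to 0.0596) and with DESeq2 (adjusted p = 0.0682). WASH1 rose there too (log2 fold change 0.38, limma adjusted p = 0.0201), but it has near-identical copies, so its reads are uncertain. The WASH1 call was lost under 9 alternatives, among them TMM scaling (adjusted p = 0.0915) and the fits without CSA knockdown replicate 2, either CSB knockdown or either control library (adjusted p 0.0664 to 0.331). In total 1 of these 11 genes rose and 1 fell in CSA knockdown, and 3 rose and 2 fell in CSB knockdown. Their median log2 fold changes were -0.04 and 0.09, and 18.8% and 23.6% of all tested genes were called.

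The other members lie at loci of their own. PEG10, a retrotransposon-derived gene with a role in placental development, was the most abundant member per length. PEG10 (ENSG00000242265, hg38 chr7:94656325-94669695, plus strand) had 744 and 715 scaled counts per kb in CSA knockdown, 652 and 700 in CSB knockdown, and 1025 and 1015 in control. CDKN1C followed in 5 of the 6 libraries, at 321 to 513 per kb, and DLK1 ranged from 51.4 to 335 per kb. In CSA knockdown replicate 1 DLK1 stood above CDKN1C, at 335 per kb against 321. PEG3 had 64.1 to 94.9 scaled counts per kb, and SNRPN, the lowest of the tested members in every library, 11.7 to 15.8. NDN (36.1 to 101), PLAGL1 (21.6 to 59.1) and MEST (16.6 to 45.4) overlapped in range and changed order between groups. Per kb, MEST stood above PLAGL1 and slightly above NDN in both CSA knockdown libraries, and below both genes in each CSB knockdown library.

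PEG10 had 4977 and 4783 scaled counts in CSA knockdown, 4362 and 4685 in CSB knockdown, and 6859 and 6790 in control. It was below control in all 4 knockdown libraries. It was 0.715-fold of control in CSA knockdown (log2 fold change -0.48, SE 0.05, limma adjusted p = 3.4e-05) and 0.663-fold in CSB knockdown (log2 fold change -0.59, SE 0.05, limma adjusted p = 6.02e-06), and both calls were kept under every alternative run. PEG10 was the 1 member called in the same direction in both knockdowns, and the comparisons share the control libraries.

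Between the knockdowns PEG10 had a log2 fold change of -0.11 for CSB over CSA knockdown (SE 0.05, limma adjusted p = 0.141). With 6 other scalings or tools that difference passed the test, from DESeq2 (adjusted p = 0.00326) to TMM scaling (adjusted p = 0.0379).

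SGCE, the epsilon-sarcoglycan gene, starts 115 bases from PEG10 on the opposite strand and is also known as paternally expressed. It had 761 and 762 scaled counts in CSA knockdown, 1101 and 1072 in CSB knockdown, and 915 and 994 in control. SGCE fell in CSA knockdown (log2 fold change -0.32, SE 0.06, limma adjusted p = 0.00275), a call lost without control replicate 2 or any of the 4 knockdown libraries (adjusted p 0.0542 to 0.0848). It rose in CSB knockdown (log2 fold change 0.19, SE 0.06, limma adjusted p = 0.0466), a call lost under 14 of 18 alternatives, among them each omission of 1 library (adjusted p 0.0794 to 0.223) and TMM scaling (adjusted p = 0.248). Between the knockdowns SGCE was higher in CSB knockdown under every alternative run (log2 fold change 0.51, SE 0.06, limma adjusted p = 4.4e-05). The ratio of PEG10 to SGCE reads was 6.54 and 6.28 in CSA knockdown, 3.96 and 4.37 in CSB knockdown, and 7.5 and 6.83 in control.

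Further along the PEG10 region, TFPI2, a protease inhibitor gene, had 426 and 410 scaled counts in CSA knockdown, 1163 and 1129 in CSB knockdown, and 1084 and 1192 in control. It fell in CSA knockdown (log2 fold change -1.44, SE 0.07, limma adjusted p = 4.95e-08). PPP1R9A, which encodes the actin-binding protein neurabin, fell in CSB knockdown (log2 fold change -0.41, SE 0.06, limma adjusted p = 2.76e-04). Both calls were kept under every alternative run. CASD1, a sialic acid acetyltransferase gene, rose in CSA knockdown (log2 fold change 0.20, SE 0.05, limma adjusted p = 0.0198), a call lost without CSA knockdown replicate 1, either CSB knockdown or either control library (adjusted p 0.0768 to 0.168). Of 4 tested neighbours, 1 rose and 2 fell in CSA knockdown, and 1 rose and 1 fell in CSB knockdown. Their medians were -0.17 and 0.04, and the shares called of all tested genes 18.8% and 23.6%.

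MEST (ENSG00000106484, hg38 chr7:130486171-130506296, plus strand), which encodes a hydrolase-like protein of the endoplasmic reticulum, had 180 and 183 scaled counts in CSA knockdown, 77.1 and 83.3 in CSB knockdown, and 207 and 210 in control. The CSB knockdown libraries lay far below the other 4. MEST was 0.384-fold of control in CSB knockdown (log2 fold change -1.37, SE 0.11, limma adjusted p = 4.55e-06) and 0.442-fold of CSA knockdown (log2 fold change -1.17, SE 0.11, limma adjusted p = 7.28e-06), and both calls were kept under every alternative run. In CSA knockdown its log2 fold change was -0.20 (SE 0.11, limma adjusted p = 0.284), although the libraries of CSA knockdown and control did not overlap.

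MEST overlaps COPG2 by 59 bases on the opposite strand, and the antisense RNA MESTIT1 within it had 1 to 4 reads in a library. COPG2 had 997 to 1288 reads in a library, and its log2 fold changes were 0.06 in CSA knockdown and -0.19 in CSB knockdown (SE 0.06 each, limma adjusted p = 0.584 and 0.0509). The ratio of MEST to COPG2 reads was 0.132 and 0.151 in CSA knockdown, 0.0702 and 0.0784 in CSB knockdown, and 0.166 and 0.173 in control. CPA4, a carboxypeptidase gene nearby, fell in CSA knockdown (log2 fold change -0.83, SE 0.09, limma adjusted p = 4.97e-05), while CEP41, a centrosomal protein gene, rose there (log2 fold change 0.55, SE 0.06, limma adjusted p = 7.59e-05), and both calls were kept under every alternative run. Of 4 tested neighbours 2 fell in CSB knockdown and the other 2 did not pass the test, where 23.6% of all tested genes passed. The calls were those of CPA4 and CEP41. The CPA4 call in CSB knockdown was lost without either CSB knockdown or either control library (adjusted p 0.0974 to 0.17), and the CEP41 call when any 1 of the 6 libraries was left out (adjusted p 0.0644 to 0.24).

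PLAGL1 (ENSG00000118495, hg38 chr6:143940300-144064599, minus strand) encodes a zinc finger transcription factor that can induce cell cycle arrest and apoptosis. It had 235 and 188 scaled counts in CSA knockdown, 490 and 516 in CSB knockdown, and 351 and 332 in control, with no overlap between groups. PLAGL1 was 0.62-fold of control in CSA knockdown (log2 fold change -0.70, SE 0.10, limma adjusted p = 4.98e-04) and 1.47-fold in CSB knockdown (log2 fold change 0.56, SE 0.10, limma adjusted p = 0.00196). Each of these calls was lost without either CSB knockdown library or either control library, with adjusted p of 0.0692 to 0.115 in CSA knockdown and 0.106 to 0.179 in CSB knockdown.

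The 2.38-fold difference of PLAGL1 between CSB knockdown and CSA knockdown was kept under every alternative run (log2 fold change 1.25, SE 0.10, limma adjusted p = 1.82e-06). HYMAI, which shares 3347 bases with PLAGL1 on the same strand, had 0 to 2 reads in a library. The mesenchymal and fibroblast marker sum had the same order of groups as PLAGL1, and its part in the result was not tested. PLAGL2, a relative of PLAGL1, had 1120 and 1080 scaled counts in CSA knockdown, 819 and 890 in CSB knockdown, and 864 and 806 in control. PLAGL2 rose in CSA knockdown (log2 fold change 0.40, SE 0.07, limma adjusted p = 0.00103), a call lost without either CSA knockdown or either control library (adjusted p 0.0568 to 0.0897).

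CDKN1C (ENSG00000129757, hg38 chr11:2883213-2885881, minus strand) encodes p57, an inhibitor of cyclin-dependent kinases. It had 829 and 957 scaled counts in CSA knockdown, 1327 and 1171 in CSB knockdown, and 1020 and 878 in control. The CSB knockdown libraries were the highest, while those of CSA knockdown and control overlapped.

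CDKN1C was 1.32-fold of control in CSB knockdown (log2 fold change 0.40, SE 0.09, limma adjusted p = 0.00681), a call lost when any 1 of the 6 libraries was left out (adjusted p 0.064 to 0.28) and with upper quartile scaling (adjusted p = 0.0507). It was 1.40-fold of CSA knockdown in CSB knockdown (log2 fold change 0.48, SE 0.09, limma adjusted p = 0.00136), a call lost without any 1 of the 4 knockdown libraries (adjusted p 0.0679 to 0.17). In CSA knockdown against control its log2 fold change was -0.09 (SE 0.09, limma adjusted p = 0.591). The group means of CDKN1C had the same order as the mesenchymal and fibroblast marker sum, whose part in the result was not tested.

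The other inhibitor genes of that family, CDKN1A (p21) and CDKN1B (p27), are not imprinted. CDKN1A had 2548 and 2706 scaled counts in CSA knockdown, 6318 and 6186 in CSB knockdown, and 3903 and 3930 in control. It fell in CSA knockdown (log2 fold change -0.58, SE 0.05, limma adjusted p = 6.31e-06) and rose in CSB knockdown (log2 fold change 0.67, SE 0.05, limma adjusted p = 1.76e-06). CDKN1B had 2050 and 2043 in CSA knockdown, 3382 and 3281 in CSB knockdown, and 1960 and 2048 in control, and rose in CSB knockdown (log2 fold change 0.73, SE 0.05, limma adjusted p = 1.06e-06). These calls of CDKN1A and CDKN1B were kept under every alternative run, and all 3 inhibitor genes were highest in CSB knockdown.

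Near CDKN1C, PHLDA2, a maternally expressed growth regulator, had 3 and 4 reads in CSA knockdown, 15 and 34 in CSB knockdown, and 16 and 22 in control. It fell in CSA knockdown (log2 fold change -2.10, SE 0.42, limma adjusted p = 0.0037), a call lost without either CSA knockdown or either control library (adjusted p 0.0708 to 0.115). SLC22A18, a transporter gene beside it, had 199 and 201 scaled counts in CSA knockdown, 372 and 353 in CSB knockdown, and 181 and 188 in control. SLC22A18 rose in CSB knockdown (log2 fold change 0.97, SE 0.09, limma adjusted p = 1.13e-05).

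OSBPL5, an oxysterol-binding protein gene of the same domain, rose in CSB knockdown as well (log2 fold change 0.90, SE 0.07, limma adjusted p = 3.51e-06), with 300.2 and 308 scaled counts in CSA knockdown, 729 and 692 in CSB knockdown, and 386 and 373 in control. Both rises, of SLC22A18 and of OSBPL5, were kept under every alternative run. KCNQ1OT1, the non-coding RNA that starts at the domain's imprinting control region, had 193 and 178 in CSA knockdown, 208 and 230 in CSB knockdown, and 227 and 244 in control. Its fall in CSA knockdown (log2 fold change -0.34, SE 0.10, limma adjusted p = 0.0379) was lost under 12 of 18 alternatives, among them each omission of 1 library (adjusted p 0.0935 to 0.239) and DESeq2 (adjusted p = 0.168). OSBPL5 also fell in CSA knockdown (log2 fold change -0.32, limma adjusted p = 0.00861), a call lost without either CSA knockdown or either control library (adjusted p 0.0575 to 0.114) and with DESeq2 (adjusted p = 0.0597). NAP1L4, a histone chaperone gene, fell in CSB knockdown (log2 fold change -0.16, limma adjusted p = 0.0452), a call lost without either CSB knockdown or either control library (adjusted p 0.176 to 0.268) and without a filter on low values (adjusted p = 0.0589). Of 9 tested neighbours of CDKN1C, 3 fell in CSA knockdown and 6 did not pass the test, while 2 rose and 1 fell in CSB knockdown. Their median log2 fold changes were -0.18 and 0.17, where 18.8% and 23.6% of all tested genes were called.

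PEG3 (ENSG00000198300, hg38 chr19:56810083-56840728, minus strand) encodes a zinc finger protein with roles in growth and maternal behaviour in mice. It had 791 and 772 scaled counts in CSA knockdown, 595 and 660 in CSB knockdown, and 880 and 866 in control. No groups overlapped, and both knockdowns lay below control.

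PEG3 was 0.718-fold of control in CSB knockdown (log2 fold change -0.48, SE 0.07, limma adjusted p = 2.54e-04), a call lost without control replicate 1 (adjusted p = 0.0571). It was also lower in CSB than in CSA knockdown (log2 fold change -0.32, SE 0.07, limma adjusted p = 0.00312), a call lost without CSA knockdown replicate 1 (adjusted p = 0.0634) or replicate 2 (adjusted p = 0.0685). In CSA knockdown its log2 fold change of -0.16 did not pass the test (SE 0.07, limma adjusted p = 0.136). ZIM2, which overlaps PEG3 on the same strand, had 4 to 18 reads in a library, far fewer than PEG3.

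**Figure D4:**
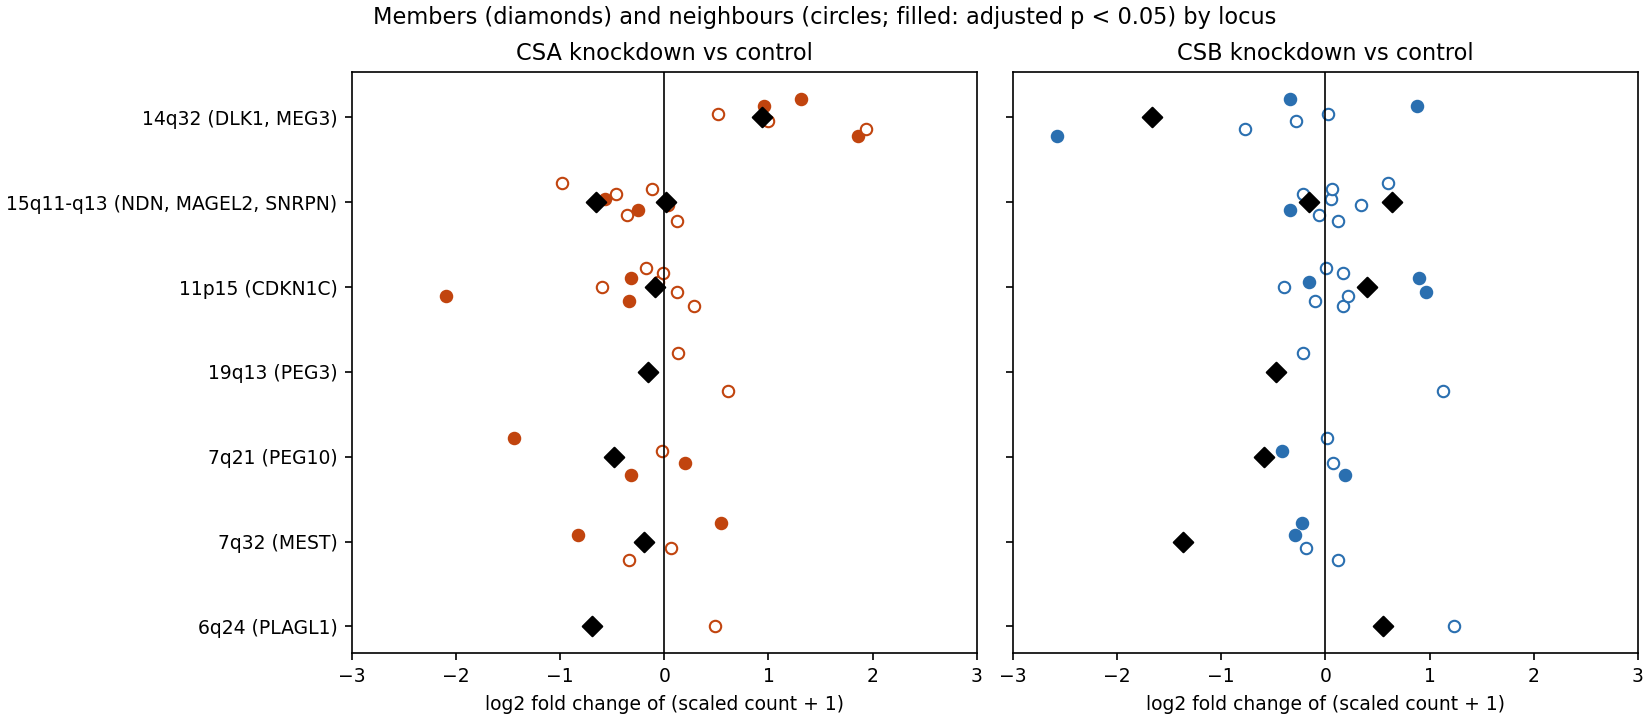
Log2 fold changes of (scaled count + 1) of the members (diamonds, called or not) and of the tested neighbours at each locus (circles, filled where the adjusted p was below 0.05), CSA knockdown over control on the left and CSB knockdown over control on the right. Neighbours of one locus spread to both sides of 0 in most rows; at the DLK1 locus all 6 neighbours were above 0 in CSA knockdown.

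Over all loci, 53 imprinted genes and locus neighbours besides the members were tested, IGF2 and H19 among them. In CSA knockdown 19 passed (8 higher, 11 lower), or 35.8%, beside 18.8% of all tested genes and 32.5% of those with a mean over the libraries of at least 20 scaled counts. In CSB knockdown 20 passed (9 higher, 11 lower), or 37.7%, beside 23.6% and 40.7%. Between the knockdowns 23 passed (14 higher and 9 lower in CSB knockdown), or 43.4%, beside 29.4% and 48.7%. Each share lay above that of all tested genes. The shares of genes with such a mean are not of a like set, because the 53 were not limited by mean. PWAR1 and HYMAI, among the 53, had 0 to 2 reads in a library. With limma-voom, 18 of the 53 were lower in CSB than in CSA knockdown. The median log2 fold changes of the 53 were -0.02, 0.02 and 0.12, beside 0.00482, 0.0967 and 0.0898 over all tested genes. With 1 library left out the counts were 7 to 10, 8 to 19 and 16 to 21.

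Among 17 imprinted genes tested at loci away from the members, 1 rose and 3 fell in CSA knockdown, and 5 rose and 2 fell in CSB knockdown. Over all tested genes 18.8% and 23.6% were called. NNAT, the neuronatin gene of the developing brain, had 1318 and 1450 scaled counts in CSA knockdown, 2249 and 2218 in CSB knockdown, and 1649 and 1696 in control. It was lower in CSA knockdown (log2 fold change -0.27, SE 0.06, limma adjusted p = 0.00536) and higher in CSB knockdown (log2 fold change 0.42, SE 0.06, limma adjusted p = 2.31e-04). The first call of NNAT was lost without either CSB knockdown or either control library (adjusted p 0.087 to 0.15), the second without either CSB knockdown library or control replicate 1 (adjusted p 0.0614 to 0.0731). ZDBF2, a zinc finger gene, had 1088 and 1054 scaled counts in CSA knockdown, 731 and 770 in CSB knockdown, and 974 and 1011 in control. ZDBF2 fell in CSB knockdown under every alternative run (log2 fold change -0.40, SE 0.06, limma adjusted p = 3.86e-04).

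FAM50B, an imprinted retrogene, had 292 and 319 scaled counts in CSA knockdown, 352 and 372 in CSB knockdown, and 269 and 251 in control. It rose in CSB knockdown (log2 fold change 0.48, SE 0.09, limma adjusted p = 0.0017), a call lost without either CSB knockdown or either control library (adjusted p 0.0553 to 0.0919). NAP1L5 fell in CSB knockdown (log2 fold change -0.31, limma adjusted p = 0.0262), a call lost without the same libraries (adjusted p 0.214 to 0.271). In CSA knockdown L3MBTL1 rose (log2 fold change 0.26, limma adjusted p = 0.0261), while BLCAP, which shares its locus with NNAT, and RB1, the retinoblastoma gene, fell (log2 fold changes -0.20 and -0.19, limma adjusted p = 0.0351 and 0.0307). These calls were lost when any 1 of the 6 libraries was left out, and those of L3MBTL1 (adjusted p = 0.098) and BLCAP (adjusted p = 0.122) also with DESeq2. In all, L3MBTL1 lost its call under 7, BLCAP under 10 and RB1 under 8 of 18 alternatives. BLCAP was higher in CSB knockdown than in control (log2 fold change 0.25, limma adjusted p = 0.00896). It was also higher there than in CSA knockdown (log2 fold change 0.44, limma adjusted p = 9.28e-05). The alternatives were not run for these rises of BLCAP. TP73, a relative of p53, was higher in CSB than in CSA knockdown (log2 fold change 0.48, limma adjusted p = 7.32e-04), a call lost without CSB knockdown replicate 2 (adjusted p = 0.111).

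IGF2R, the receptor gene that clears IGF2, had 4840 and 4903 scaled counts in CSA knockdown, 6468 and 7080 in CSB knockdown, and 5450 and 5435 in control. It rose in CSB knockdown (log2 fold change 0.31, SE 0.05, limma adjusted p = 8.89e-04), a call lost without control replicate 1 (adjusted p = 0.0876) or replicate 2 (adjusted p = 0.0846).

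Of 21 genes known to set or keep imprints, 17 were tested. ZFP57, DNMT3L, CTCFL and DPPA3 had no entry in any library, by symbol or by Ensembl identifier, and were not tested. In CSA knockdown 6 fell and 11 did not pass the test, and in CSB knockdown 4 rose and 1 fell. The median log2 fold changes were -0.13 and -0.04. Of all tested genes 18.8% and 23.6% were called. Among genes with a mean of at least 20 scaled counts, 32.5% and 40.7% were. TDG, a thymine DNA glycosylase that acts in DNA demethylation, had 882 and 854 scaled counts in CSA knockdown, 1351 and 1280 in CSB knockdown, and 1456 and 1482 in control. TDG fell in CSA knockdown under every alternative run (log2 fold change -0.76, SE 0.06, limma adjusted p = 2.13e-06).

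UHRF1, which brings DNMT1 to replicating DNA, fell in CSA knockdown (log2 fold change -0.48, SE 0.06, limma adjusted p = 1.85e-04), with 2556 and 2955 scaled counts in CSA knockdown, 3587 and 3523 in CSB knockdown, and 3824 and 3859 in control. That call of UHRF1 was lost without either CSB knockdown or either control library (adjusted p 0.0598 to 0.0895). TET2, an enzyme that oxidises methylcytosine, had 814 and 711 scaled counts in CSA knockdown, 1101 and 1195 in CSB knockdown, and 842 and 894 in control. It rose in CSB knockdown (log2 fold change 0.40, SE 0.08, limma adjusted p = 0.00196), a call lost without either CSB knockdown or either control library (adjusted p 0.0909 to 0.173). TRIM28, the corepressor recruited by ZFP57 and ZNF445, rose in CSB knockdown as well (log2 fold change 0.29, SE 0.06, limma adjusted p = 0.00489). The TRIM28 call was lost with TMM scaling (adjusted p = 0.0607), with upper quartile scaling (adjusted p = 0.0531), and without control replicate 2 or any of the 4 knockdown libraries (adjusted p 0.0643 to 0.233). ZNF445 rose there too (log2 fold change 0.22, limma adjusted p = 0.0055), a call lost with TMM scaling (adjusted p = 0.0715) and without either CSB knockdown or either control library (adjusted p 0.0536 to 0.0921).

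TET1, of the same enzyme family as TET2, fell in both knockdowns (log2 fold changes -0.33 in CSA and -0.26 in CSB knockdown, limma adjusted p = 0.0093 and 0.0271). Both TET1 calls were lost when any 1 of the 6 libraries was left out (adjusted p 0.0596 to 0.243). Between the knockdowns the histone demethylase gene KDM1B (log2 fold change -0.27, limma adjusted p = 0.00554), the methyltransferase gene DNMT3B (-0.23, adjusted p = 0.0354) and ARID4A (-0.23, adjusted p = 0.0348) were lower in CSB knockdown. The KDM1B call was kept under every alternative run. That of DNMT3B was lost without CSA knockdown replicate 2, either CSB knockdown or either control library (adjusted p 0.0888 to 0.193), and that of ARID4A without any of the 4 knockdown libraries (adjusted p 0.154 to 0.309).

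Relatives of the members outside the imprinted clusters, 22 tested, gave 1 rise and 6 falls in CSA knockdown and 4 rises and 3 falls in CSB knockdown. The median log2 fold changes were -0.08 and -0.02. Calls made up 18.8% and 23.6% of all tested genes. PNMA2, a retrotransposon-derived gene like PEG10, fell in both knockdowns (log2 fold changes -0.42 in CSA and -0.39 in CSB knockdown, SE 0.06 each, limma adjusted p = 3.22e-04 and 4.68e-04). The PNMA2 call in CSA knockdown was lost without CSA knockdown replicate 2, CSB knockdown replicate 2 or control replicate 1 (adjusted p 0.0548 to 0.0794). Its call in CSB knockdown was lost without either CSB knockdown library or control replicate 1 (adjusted p 0.0633 to 0.0998).

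RGAG1, of the same kind, had 0 and 1 reads in CSA knockdown, 1 and 1 in CSB knockdown, and 8 and 3 in control, and its fall in CSA knockdown (limma adjusted p = 0.0443) was lost under 15 alternatives, among them each omission of 1 library (adjusted p 0.0942 to 0.235). MAGEF1 and MAGED2, relatives of NDN, fell in CSB knockdown (log2 fold changes -0.34 and -0.18, limma adjusted p = 9.3e-04 and 0.0238). The MAGEF1 call was lost without either control library (adjusted p 0.0815 to 0.0849), and the MAGED2 call without either CSB knockdown or either control library (adjusted p 0.131 to 0.201). FAM127A, whose near-identical copies make its reads uncertain, rose in CSB knockdown (log2 fold change 0.27, limma adjusted p = 0.00177), a call lost without CSB knockdown replicate 1 or either control library (adjusted p 0.0573 to 0.0743).

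Between the knockdowns LDOC1L was higher in CSB knockdown under every alternative run (log2 fold change 0.45, limma adjusted p = 1.67e-05). LDOC1 and PNMA1 were lower there (log2 fold changes -0.30 and -0.22, limma adjusted p = 0.0336 and 0.00526). The LDOC1 call was lost without CSA knockdown replicate 2, either CSB knockdown or either control library (adjusted p 0.152 to 0.392), and the PNMA1 call without either CSB knockdown library (adjusted p 0.0812 to 0.0815). DLK2, the relative of DLK1, had 93.2 and 95.4 scaled counts in CSA knockdown, 103 and 85.0 in CSB knockdown, and 94.5 and 106 in control, and its groups overlapped. SNRPB, the relative of SNRPN that is expressed in most cells, had 3998 and 3942 in CSA knockdown, 4788 and 4525 in CSB knockdown, and 4643 and 4990 in control. Both CSA knockdown libraries of SNRPB lay below both control libraries, while those of CSB knockdown overlapped control. MAGED1, a relative of NDN and MAGEL2, had 6548 and 6113 in CSA knockdown, 5703 and 5740 in CSB knockdown, and 6262 and 6216 in control, and did not pass the test against control.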

How the data were processed

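RNA was sequenced paired-end in 6 libraries of SH-SY5Y cells, made from 1 µg of total RNA with a TruSeq kit, per the labels' protocols. The submitters' processing notes name FastQC, HISAT2 2.0.4 and hg38. The way reads were counted (with strand or without), the annotation and the scaling are not stated in these sources. Each value column is headed FPKM per the file headers, but the deposited values are a signal, gene reads divided by 1 size factor per library: 100% of them were whole multiples of the library's smallest value within 0.01 of that step. They are called scaled counts, and reads were recovered by that division. A gene without an entry in a library was taken as 0. Gene symbols, positions and lengths come from the deposited tables.

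Genes reaching a group mean of 1 scaled count in any group entered limma 3.58.1 (R 4.3.3, mean-variance trend) on log2(scaled count + 1), which understates the change of low genes. The 3 groups entered 1 fit with 3 residual degrees of freedom, without a replicate block. The moderated test of limma adds degrees of freedom estimated over all genes. Adjusted p-values are Benjamini-Hochberg values over all tested genes; every one is limma's unless another tool is named. The limma step was run on simulated counts with a common dispersion for CSA knockdown against control, with 200 genes changed by log2 1 or 2. Of these changes 91.1% and 100% were recovered, and 0.0277% of the unchanged genes were called. Smaller changes, changes in genes of few reads and a large share of changed genes were not simulated. The simulation therefore does not bear on calls of those kinds. Replicate numbers did not pair the libraries: deviations of same-numbered libraries correlated at -0.0316 (CSA with CSB knockdown), -0.0402 (CSA knockdown with control) and -0.0323 (CSB knockdown with control) over 13397 genes.

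The alternatives were pseudocounts of 0.5 and 5, no filter or a mean of at least 10, TMM, upper quartile or total count scaling, edgeR 4.0.16 quasi-likelihood, DESeq2 1.42.0 and limma-voom on the recovered reads, a fit of 2 groups, a replicate block, omission of each library, and members summed with an overlapping gene. The members, gene lists and alternatives were chosen with earlier results of these data known. Listed genes were named where they passed the test, at most the 3 largest rises and 3 largest falls per list and comparison. MEG9, DIO3, MKRN3, DLK2, SNRPB, MAGED1 and the rises of BLCAP were added after their values were seen. Floors of 3 reads per library cover counting error only. Promoter windows come from RefSeq and motifs were counted on both strands.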

Additional observations from a re-analysis of the deposited data

Results flagged for a closer look

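For 3 of the 8 tested genes the knockdowns differed from control in opposite directions, with both changes past the test. The share of all tested genes with this pattern was not counted, so the number is not read as a trait of the members. Between the knockdowns 29.4% of all tested genes passed the test, and 48.7% of those with a mean of at least 20 scaled counts. The difference itself was tested as CSB knockdown against CSA knockdown in the limma fit. Passing that test was also a condition for being listed here. With opposite changes the difference is larger than either change, so its adjusted p adds no separate support. The comparisons with control share the 2 control libraries.

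DLK1 had log2 fold changes of -1.669 in CSB knockdown and 0.9403 in CSA knockdown, a difference of -2.609 (limma adjusted p = 9.68e-11). NDN had 0.6441 in CSB knockdown and -0.6574 in CSA knockdown, a difference of 1.301 (limma adjusted p = 7.01e-05). PLAGL1 had 0.557 in CSB knockdown and -0.6966 in CSA knockdown, a difference of 1.254 (limma adjusted p = 1.82e-06). In each case both libraries of a knockdown lay on the same side of both control libraries. Against control, both calls of NDN were lost whichever library was left out. Both calls of PLAGL1 were lost without either CSB knockdown library or either control library, and those of DLK1 were kept under every alternative run. The differences of DLK1 and PLAGL1 passed under every alternative run, and that of NDN was lost when CSA knockdown replicate 2 or either CSB knockdown library was left out (adjusted p 0.0514 to 0.0599).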

How the results depend on the processing

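Of 17 calls of members over the 3 comparisons, 8 were kept under every alternative run and 9 were lost when 1 library was left out, which also removes 1 residual degree of freedom; of 99 calls of the other named genes, 43 were kept throughout. Leaving out 1 library leaves an arm with 1 sample, which is then assumed to vary like the other groups. The spread shared over genes was estimated anew in each of these fits. With 1 library omitted, members called were 2 to 3 (4 in the full fit) in CSA knockdown against control, 3 to 5 (7) in CSB knockdown against control and 3 to 6 (6) in CSB against CSA knockdown. All genes called were 1126 to 3306 (5334), 1773 to 5961 (6706) and 4384 to 6223 (8340) in the same comparisons, and other imprinted genes and neighbours called were 7 to 10 (19), 8 to 19 (20) and 16 to 21 (23). The log2 ratio of NDN to SNRPN ranged from -1.03 to -0.344 (-0.685), 0.474 to 1.16 (0.814) and 1.21 to 1.78 (1.5). No other alternative moved a total number of calls beyond 1.5 times, but some moved the number in 1 direction. Higher in CSB knockdown than in control were 4191 of all genes, 2766 with TMM scaling and 2212 with DESeq2, and 9 of the other imprinted genes and neighbours, 5 with DESeq2. Higher in CSB than in CSA knockdown were 5128 of all genes and 3132 with DESeq2. Lower there were 9 of the other imprinted genes and neighbours, and 14 with TMM scaling, 15 with upper quartile scaling, 17 with edgeR and 18 with limma-voom. Some uncalled changes turned sign in CSA knockdown against control: SNRPN (-0.0871 to 0.127 with 1 library omitted, below 0 without CSA knockdown replicate 2 or control replicate 1, and -0.0697 summed with SNURF), CDKN1C (-0.194 to 0.0216, above 0 without replicate 1 of CSA knockdown or of control) and ERCC6 (-0.000314 to 0.0509, below 0 without control replicate 2); the cause was not tested.

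With a replicate block, 4, 7 and 6 members, 5259, 6575 and 8258 of all genes and 20, 18 and 23 of the other imprinted genes and neighbours were called in the same comparisons. No member call changed; of the genes named in the text, the calls of SGCE (adjusted p = 0.0606), CPA4 (adjusted p = 0.0517) and NAP1L4 (adjusted p = 0.0658) in CSB knockdown against control and of RGAG1 (adjusted p = 0.0508) in CSA knockdown against control were lost. The libraries share only a number, so the block is given here as a setting. The depth allows no statement on MEG3 or MAGEL2 below 3 reads per library.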

Other observations

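A list of 8 epithelial and blood cell markers summed to 87.74 to 93.22 scaled counts in CSA knockdown, 180.6 to 184.8 in CSB knockdown, and 122.3 and 513.2 in control. The higher control value came from HBB, a red blood cell globin gene, which had 373 scaled counts in control replicate 2 and 0 in the other 5 libraries. Its part in any result was not tested.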
